A study of Homo sapiens with 6 samples.

Results

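This account covers 35 genes of cholesterol and fatty acid synthesis, taken by symbol from a list of enzymes, regulators and sterol carriers, out of 26391 genes in the expression table of the series. Each symbol matched 1 row, and all 35 were among the 16245 genes that passed the filter on low values. The list was not chosen by a threshold on the values, but some of its results were already known from these data when it was drawn up. Messenger RNA was sequenced from HEK293T, an established line of human embryonic kidney origin in which the SV40 large T antigen is expressed. Cells grown to 50% confluency were transfected with a non-targeting control siRNA (3 samples) or with a pool of 4 siRNAs against LOC550643 (3 samples), and they were lysed for RNA at 48 hours. LOC550643 is known to encode a small protein that binds EDC4, a scaffold of mRNA decapping, and the comparison asks which mRNA levels differ once it is silenced. Both groups are the same line and carry no other stated alteration. There was 1 pool and 1 control siRNA, so effects of the loss of LOC550643 and other effects of either reagent cannot be told apart.

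Cholesterol is built from acetyl-CoA. Acetyl-CoA units are joined to HMG-CoA, reduced to mevalonate, and turned into isoprenoid units that condense to farnesyl diphosphate and squalene. Squalene is closed to lanosterol, and a series of demethylations, reductions and isomerisations then gives cholesterol. Fatty acid synthesis draws on the same acetyl-CoA, which ATP citrate lyase releases from citrate. Many genes of both routes are targets of the SREBP transcription factors, encoded by SREBF1 and SREBF2. When sterols are plentiful, INSIG proteins hold SREBP and its escort SCAP in the endoplasmic reticulum. When sterols fall, the complex moves to the Golgi, where SREBP is cut and released to the nucleus.

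SREBP acts on promoters together with NF-Y, a factor that binds CCAAT boxes. Promoter windows from RefSeq (GRCh38.p14, 250 bases before to 50 after the start) matched 31 of the 35 genes by symbol; ACAT2, FDFT1, SQLE and FASN had no entry. The sequences below show the 2 genes with the largest rises, INSIG1 and FDPS, the gene with the largest fall, STARD4, and SREBF2. They were chosen after the values and matches were seen, because the rule first set, genes past the test with a match to TCACNCCAC, found none. Only the 250 bases before the start are printed, 5′ to 3′ on the strand of the gene. The windows are chr7:155297628-155297877 (plus strand) for INSIG1, chr1:155308616-155308865 (plus) for FDPS, chr5:111512536-111512785 (minus) for STARD4 and chr22:41832855-41833104 (plus) for SREBF2. Capitals mark CCAAT on either strand, which reads ATTGG on the other, and in SREBF2 also TCACNCCAC, the core of a sterol regulatory element. No printed match overlaps another.
INSIG1: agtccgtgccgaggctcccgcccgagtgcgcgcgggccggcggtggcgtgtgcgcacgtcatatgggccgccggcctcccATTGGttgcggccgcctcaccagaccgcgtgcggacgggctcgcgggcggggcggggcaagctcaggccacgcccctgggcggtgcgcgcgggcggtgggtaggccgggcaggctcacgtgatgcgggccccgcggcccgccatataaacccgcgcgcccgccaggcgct
FDPS: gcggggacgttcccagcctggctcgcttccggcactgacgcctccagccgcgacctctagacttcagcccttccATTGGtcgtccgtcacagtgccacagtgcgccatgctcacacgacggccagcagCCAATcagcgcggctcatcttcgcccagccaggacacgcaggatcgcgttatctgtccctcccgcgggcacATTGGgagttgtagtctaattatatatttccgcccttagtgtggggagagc
STARD4: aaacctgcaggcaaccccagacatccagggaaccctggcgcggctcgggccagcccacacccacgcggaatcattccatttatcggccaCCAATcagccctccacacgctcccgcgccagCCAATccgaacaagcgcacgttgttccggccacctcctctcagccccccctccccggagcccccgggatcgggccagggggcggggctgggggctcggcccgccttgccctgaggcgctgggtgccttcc
SREBF2: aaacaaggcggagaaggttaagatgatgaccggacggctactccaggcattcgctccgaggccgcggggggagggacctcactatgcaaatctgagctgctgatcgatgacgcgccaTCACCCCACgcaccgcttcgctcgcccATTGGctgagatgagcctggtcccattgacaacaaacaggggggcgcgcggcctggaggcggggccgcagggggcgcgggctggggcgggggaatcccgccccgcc

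TCACNCCAC was found on either strand in the window of 1 of the 31 genes, SREBF2 (3.2%), and in 1.39% of the 27305 genes with a promoter entry. CCAAT was in the windows of 21 of the 31 genes (67.7%), against 39.7% of all genes with an entry and 42.5% of those tested here. It was found in 8 of the 9 genes with an entry that rose, in 2 of 3 that fell and in 11 of 19 that did not pass the test. FDPS carried 3 such boxes before its start, STARD4 2, and INSIG1 and SREBF2 1 each. These are matches of letters in short windows, some genes have several windows, and a box outside them was not looked for. Only exact matches to TCACNCCAC were counted, so a sterol regulatory element that departs from this pattern would be missed. The count therefore does not show that the other promoters lack such an element.

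Depth, worked out from the deposited values, ran from 8604236 to 36082404 read pairs over genes, with LOC550643 siRNA replicate 3 the shallowest. Levels are in CPM, counts per 1e+06 counts of the genes tested, after TMM scaling of the library totals. LOC550643, listed as LINC01420, stood at 56.2, 50.7 and 51.9 CPM in control replicates 1 to 3. In LOC550643 siRNA replicates 1 to 3 it stood at 5.86, 5.96 and 5.41 CPM. Control replicate 2 differed most from the others of its group in the counts of all genes. Of 10 markers of HEK293 cells all were measured, including PAX2, NEFL and VIM. Their summed level was 1141 to 1256 CPM in control and 1262 to 1402 CPM in LOC550643 siRNA libraries. VIM gave most of that sum, with a mean of 813 CPM in control and 870 CPM with the pool, whereas PAX2 averaged 16.6 CPM in control. Of the 10, 3 were higher (NEFM, KRT18 and L1CAM) and 1 was lower, INA, from a mean of 5.53 CPM in control to 2.44 CPM with the pool. Summed markers of leukocytes, adipocytes and hepatocytes stayed at 8.54 CPM or below in each library, and PTPRC, ADIPOQ, FABP4 and LEP were at or near 0. Of 5 fibroblast markers, COL1A1 gave nearly all of the 61.2 to 69.8 CPM in control and 62.3 to 67.4 CPM in LOC550643 siRNA libraries, and COL1A2 was at or near 0.

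After LOC550643 siRNA, 11 of the 35 genes were higher and 3 were lower (limma adjusted p under 0.05, adjusted over all genes tested), while 21 did not pass. Across all genes tested, 17.5% were higher and 18.2% lower, 35.7% in all, so the share of listed genes that passed in either direction (14 of 35) was near that background and the share that rose (31.4%) was above it. Most of the listed genes are well expressed: 31 lay above the median level of 29.2 CPM, and among all genes above that level 26.1% were higher and 15.9% lower. The median log2 fold change (LOC550643 siRNA over control siRNA throughout) was 0.08 over the 35 genes and -0.02 over all genes tested. The groups did not overlap at 18 of the 35 genes (51.4%), against 48.5% of all genes. The genes that rose were INSIG1, FDPS, FASN, AACS, HMGCS1, SQLE, MVD, DHCR7, ACLY, MVK and LSS, and those that fell were STARD4, TM7SF2 and ELOVL6. RNA came from whole cultures, so a lower level cannot be told apart from fewer cells that hold the transcript.

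**Figure D1:**
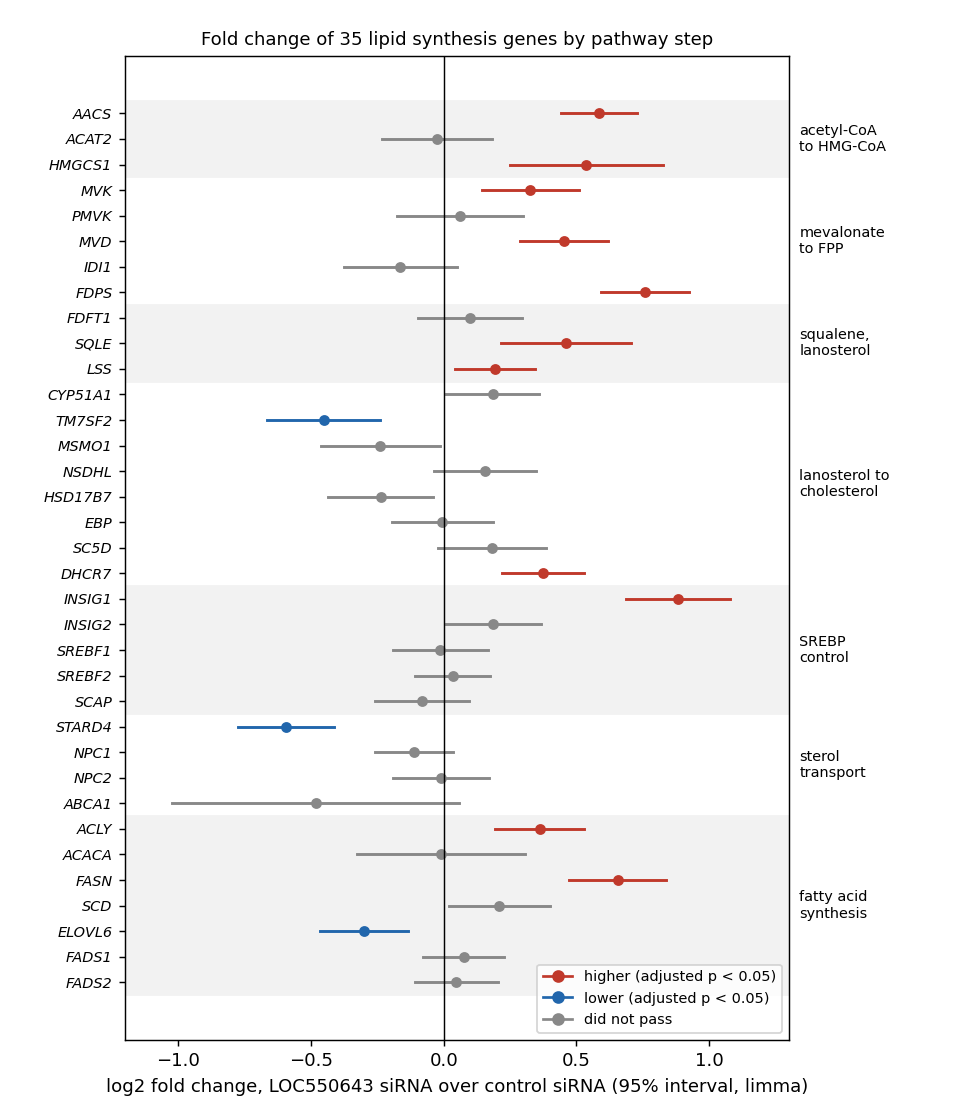
Log2 fold change of each of the 35 genes (x axis, LOC550643 siRNA over control siRNA) with its 95% interval from limma, grouped by pathway step; FPP is farnesyl diphosphate. Red genes were higher and blue genes lower at an adjusted p under 0.05, and the values run from -0.59 for STARD4 to 0.88 for INSIG1.

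The largest rise was that of INSIG1, the sterol-sensing retention factor of the endoplasmic reticulum and itself a known SREBP target. Its level was 116, 116 and 114 CPM in control replicates 1 to 3 and 183, 225 and 234 CPM in LOC550643 siRNA replicates 1 to 3. The control libraries lay within a few CPM of each other and each library of the pool was higher, with LOC550643 siRNA replicate 1 the lowest of its group. INSIG1 rose 1.85-fold (log2 0.88, SE 0.0892, limma adjusted p = 3.81e-05). It lies on chromosome 7 at 155089486 to 155101945 (hg19, plus strand), and no other gene of the table overlaps it. INSIG2, its paralog, which is less abundant, stood at 28.1, 25.1 and 26.6 CPM in control and 28.4, 31.1 and 31.2 CPM in LOC550643 siRNA libraries. Its groups did not overlap but lay close together, and it did not pass (log2 0.19, SE 0.0812, limma adjusted p = 0.0950). Per kilobase of exon, INSIG1 had 38.5 CPM and INSIG2 10.3 CPM in the control libraries.

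The genes for SREBP itself and for its escort gave values near no change. SREBF1 stood at 63.7, 60.6 and 61.0 CPM in control and 68.7, 58.8 and 56.9 CPM in LOC550643 siRNA libraries, and the groups overlapped. SREBF2, the form most tied to cholesterol genes, stood at 276, 276 and 272 CPM and 279.9, 289.8 and 274 CPM, also with overlap, and its log2 fold change was 0.03, or -0.04 with library totals alone. SCAP, the escort, stood at 176, 174 and 169 CPM and 178, 169 and 145 CPM, where LOC550643 siRNA replicate 3 lay below the other 5 libraries. The 95% intervals of the log2 fold changes were -0.19 to 0.17 for SREBF1, -0.11 to 0.18 for SREBF2 and -0.26 to 0.09 for SCAP, and their limma adjusted p-values were 0.922, 0.707 and 0.453. SREBF1 shares 556 annotated exon bases with RAI1 on the opposite strand, so part of its reads may belong to RAI1.

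**Figure D2:**
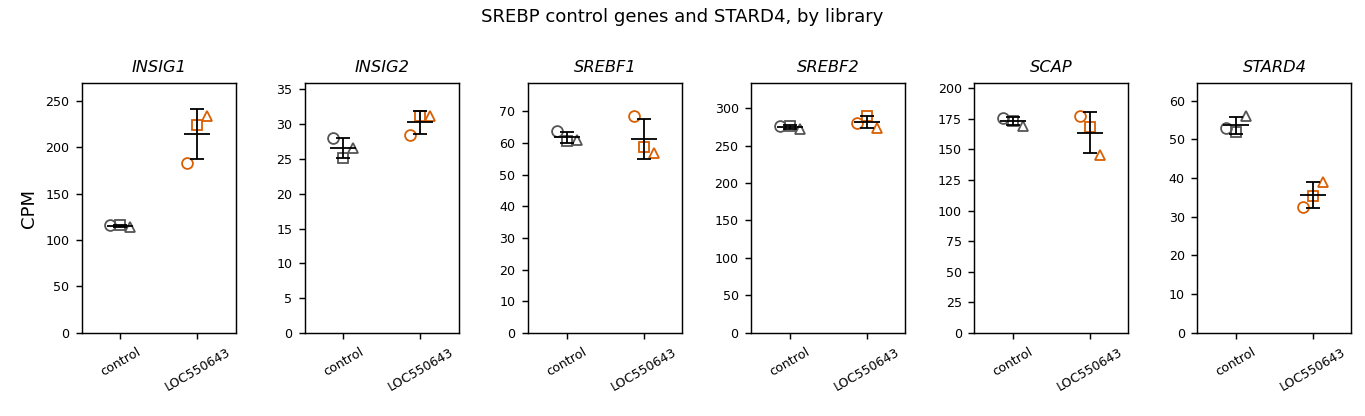
Level in CPM (y axis, from 0) of the SREBP control genes and of STARD4 in each library, with the mean and SD of 3 as bars; symbols mark replicates 1 (circle), 2 (square) and 3 (triangle). INSIG1 was higher and STARD4 lower in every LOC550643 siRNA library than in any control library, whereas SREBF1, SREBF2 and SCAP overlapped.

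At the entry of the sterol route, 2 of 3 genes rose. Positions are in hg19. AACS (chromosome 12, 125549925 to 125627871), which makes acetoacetyl-CoA from the ketone body acetoacetate in the cytosol, stood at 51.2, 49.0 and 51.1 CPM in control and 75.7, 76.8 and 74.7 CPM in LOC550643 siRNA libraries. The libraries of each group lay close together and the groups far apart (log2 0.59, SE 0.0650, limma adjusted p = 6.95e-05). HMGCS1 (chromosome 5, 43287572 to 43313614), HMG-CoA synthase, had 86.7, 91.6 and 100.1 CPM with the control siRNA and 105, 144 and 161 CPM with the pool. LOC550643 siRNA replicate 1 lay only just above the highest control library, and the SE was larger (log2 0.54, SE 0.131, limma adjusted p = 0.00827). ACAT2, the cytosolic thiolase that joins acetyl-CoA units, did not pass (log2 -0.02, SE 0.0950, limma adjusted p = 0.862). ACAT2 shares 454 annotated exon bases with TCP1 on the opposite strand, and TCP1 had a mean of 391 CPM in the control libraries whereas ACAT2 averaged 70.8 CPM there and 69.3 CPM with the pool, so the value of ACAT2 is uncertain.

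Among the 5 enzymes from mevalonate to farnesyl diphosphate, 3 rose and 2 did not pass. FDPS, which condenses isoprenoid units to farnesyl diphosphate, stood at 115, 102 and 108 CPM in control and 170.4, 186 and 194 CPM in LOC550643 siRNA libraries. The gap between the groups was wider than the range within either (log2 0.76, SE 0.0754, limma adjusted p = 3.56e-05). FDPS lies on chromosome 1 at 155278705 to 155290457 (hg19) and shares 693 annotated exon bases with RUSC1-AS1 on the opposite strand. RUSC1-AS1 also rose by 0.66 on the log2 scale (16.9 CPM in control, 26.7 CPM with the pool, limma adjusted p = 0.000297), and the reads of the shared part could come from either gene, since no strand option is recorded for the counting. MVD, which decarboxylates mevalonate diphosphate, went from 51.1, 49.3 and 47.3 CPM in the control libraries to 63.0, 72.7 and 66.7 CPM, without overlap (log2 0.45, SE 0.0757, limma adjusted p = 0.000901). MVK, mevalonate kinase, had 28.0, 26.4 and 26.3 CPM with the control siRNA and 31.3, 36.9 and 33.2 CPM with the pool, again without overlap (log2 0.33, SE 0.0835, limma adjusted p = 0.0106). The call of MVK was lost without LOC550643 siRNA replicate 2 (limma adjusted p = 0.0527). PMVK, phosphomevalonate kinase, had a log2 fold change of 0.06 and IDI1, the isomerase that acts just before FDPS, one of -0.16. Neither passed (limma adjusted p = 0.691 and 0.211), and PMVK stood at -0.01 with library totals alone. IDI1 was at -0.06 without LOC550643 siRNA replicate 1 and at -0.26 (limma adjusted p = 0.0577) without replicate 3. The 95% interval was -0.37 to 0.05 for IDI1 and 0.59 to 0.92 for FDPS. IDI1 shares 643 annotated exon bases with IDI2-AS1 on the opposite strand, which had 10.7 CPM in the control libraries.

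In the conversion of farnesyl diphosphate to lanosterol, 2 of 3 genes rose. SQLE, squalene epoxidase, a rate-limiting oxygen-dependent step, stood at 213, 220.1 and 213 CPM in control and 239, 332 and 327 CPM in LOC550643 siRNA libraries. As with HMGCS1, LOC550643 siRNA replicate 1 was the closest to the control level and the other 2 libraries lay well above it (log2 0.46, SE 0.112, limma adjusted p = 0.00793). LSS, lanosterol synthase, stood at 90.4, 94.3 and 89.7 CPM and 107, 109 and 98.3 CPM, and its rise was small (log2 0.19, SE 0.0684, limma adjusted p = 0.0469). The limma adjusted p was 0.121 with control replicate 1 left out, 0.123 with control replicate 3 left out, 0.119 with the first LOC550643 siRNA library left out and 0.153 with the second left out, and the authors' deposited table gives it an adjusted p of 0.14. FDFT1, squalene synthase, had a log2 fold change of 0.10 and overlapping groups (limma adjusted p = 0.414). It was at 0.21 (limma adjusted p = 0.0540) without LOC550643 siRNA replicate 1, at 0.06 without replicate 2 and at 0.03 without replicate 3.

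The 8 enzymes between lanosterol and cholesterol gave mixed values: 1 rose, 1 fell and 6 did not pass. DHCR7 (chromosome 11, 71145457 to 71159477), which makes cholesterol from its immediate precursor, had 143, 147 and 140.2 CPM with the control siRNA and 172, 191 and 195 CPM with the pool, without overlap (log2 0.37, SE 0.0704, limma adjusted p = 0.00185). TM7SF2 (chromosome 11, 64879326 to 64883707), a sterol reductase whose reaction is also catalysed by the lamin B receptor LBR, stood at 44.8, 41.9 and 39.8 CPM in control and 33.7, 32.4 and 26.7 CPM in LOC550643 siRNA libraries. Each library of the pool lay below each control library (log2 -0.45, SE 0.0968, limma adjusted p = 0.00401). LBR itself, named after its values were seen, did not pass (log2 0.12, SE 0.0663, limma adjusted p = 0.175). TM7SF2 was thus lower while DHCR7, in the same part of the route, was higher.

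The other 6 late enzymes had log2 fold changes on either side of 0. Upward were CYP51A1, lanosterol demethylase (0.18), SC5D, a sterol desaturase (0.18), and NSDHL, a sterol dehydrogenase (0.16), with limma adjusted p of 0.0922, 0.150 and 0.191. Downward were MSMO1, the methylsterol oxidase (-0.24), and HSD17B7, a ketosteroid reductase (-0.24), with 0.0903 and 0.0611. EBP, a sterol isomerase, was at -0.00503, or 0.00123 with median-of-ratios scaling. Some of these stood near the threshold. Without LOC550643 siRNA replicate 1, CYP51A1 (0.26, limma adjusted p = 0.0282) and NSDHL (0.25, 0.0354) passed, and without LOC550643 siRNA replicate 3, MSMO1 (-0.34, 0.0301) and HSD17B7 (-0.29, 0.0381) passed. MSMO1 was at -0.11 (limma adjusted p = 0.319) without LOC550643 siRNA replicate 1, NSDHL at 0.09 without replicate 2 and SC5D at 0.09 without replicate 3. HSD17B7 also passed with edgeR (adjusted p = 0.0496), voom, upper-quartile scaling, library totals alone and thinning to the shallowest library. HSD17B7 has a near copy in the table, HSD17B7P2 at 3.15 CPM in the control libraries, which may share its reads.

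**Figure D3:**
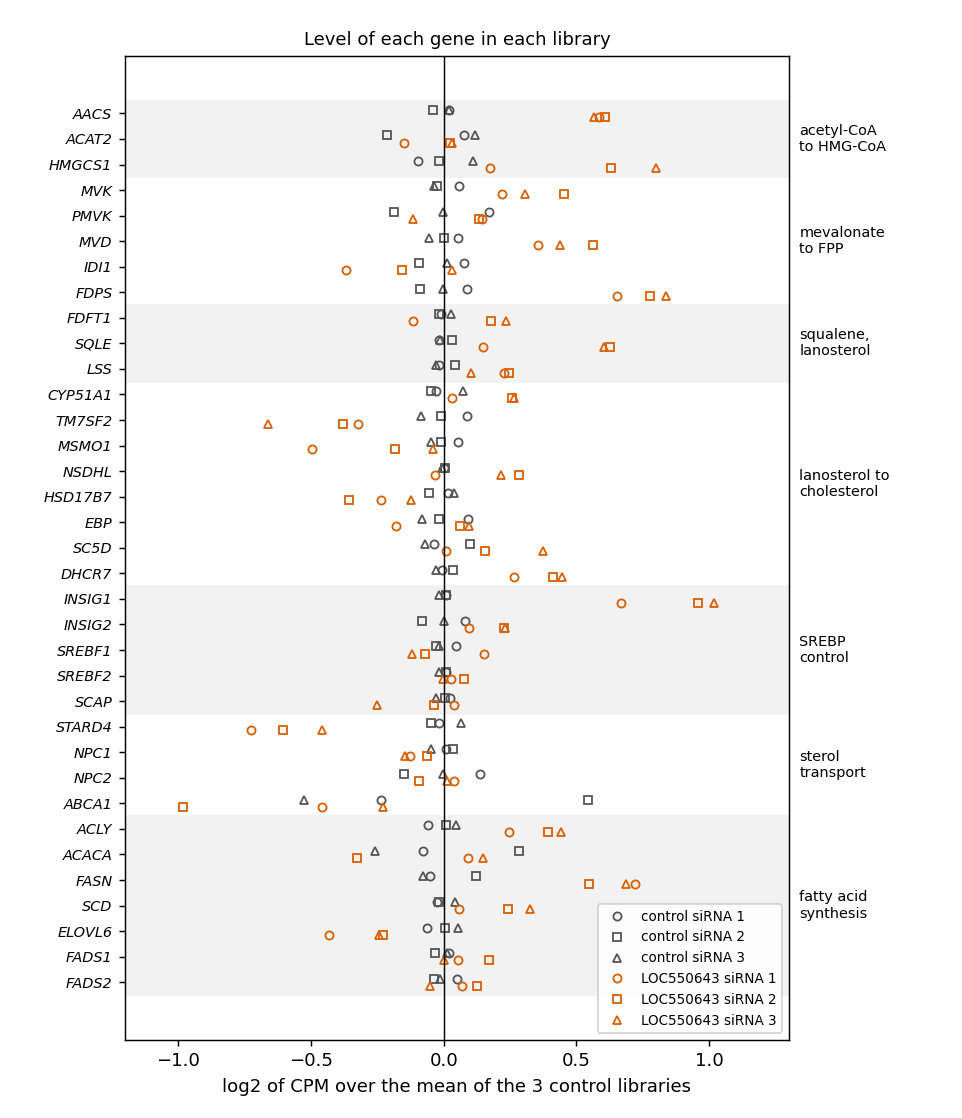
Level of each gene in each library, as the log2 of its CPM over the mean of the 3 control libraries (x axis), by pathway step. Grey symbols are control and orange symbols LOC550643 siRNA libraries; replicate 1 of the latter (orange circles) was the lowest of its group at 14 of the 19 cholesterol synthesis enzymes.

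Of the 19 cholesterol synthesis enzymes, 8 rose (42.1%, against 17.5% of all genes), 1 fell (5.26%, against 18.2%) and 10 stayed outside the threshold. Most of these enzymes lay above the median level of the genes tested, and among all genes above it 26.1% were higher and 15.9% lower. The 8 include LSS, whose call was lost in 11 of 20 alternatives. The median log2 fold change of the 19 enzymes was 0.18. The summed level of the 19, which the most abundant and longest transcripts dominate, was 1777, 1739 and 1762 CPM in control replicates 1 to 3. In LOC550643 siRNA replicates 1 to 3 it was 1854, 2177 and 2231 CPM. The first of the LOC550643 siRNA libraries was only slightly above the control libraries, and the other 2 were clearly higher. By step, the ratio of the summed means was 1.32 from acetyl-CoA to HMG-CoA, 1.26 from mevalonate to farnesyl diphosphate, 1.24 for squalene and lanosterol, and 1.09 from lanosterol to cholesterol, where the groups overlapped. The differences between steps were not tested.

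**Figure D4:**
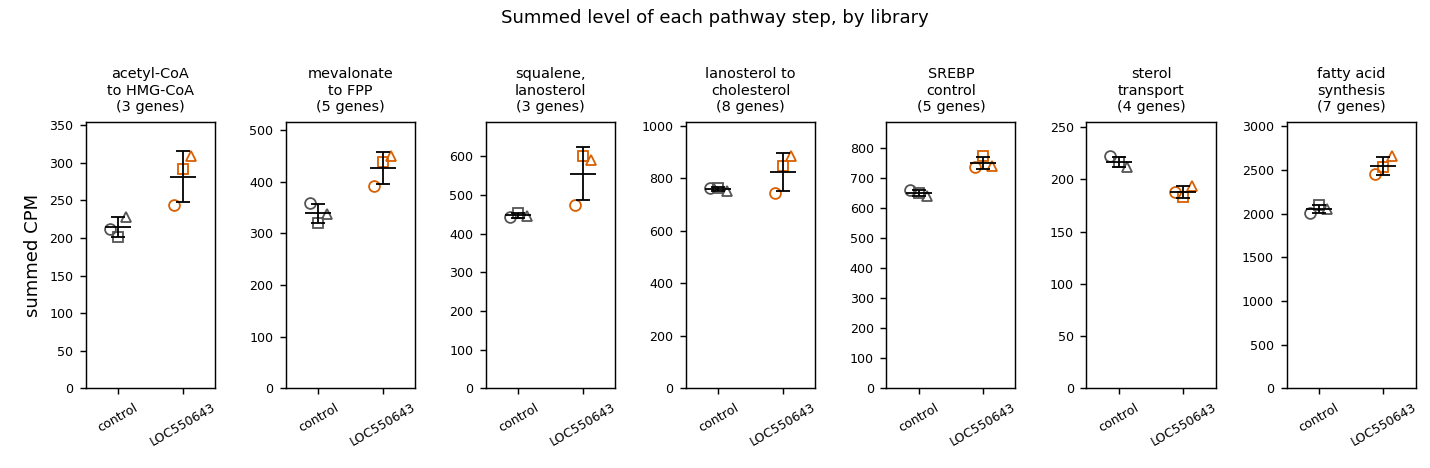
Summed CPM of the genes of each pathway step in each library (y axis, from 0), with the mean and SD of 3 as bars; symbols mark replicates 1 (circle), 2 (square) and 3 (triangle). The sum for sterol transport was lower after LOC550643 siRNA (187.5, 182.7 and 194.0 CPM against 221.9, 216.8 and 212.1 CPM). Within it only STARD4 passed (mean 53.6 CPM in control and 35.6 CPM with the pool), and NPC1, NPC2 and ABCA1 did not. The sums for the late sterol enzymes overlapped, and in the other steps every LOC550643 siRNA library was above every control library. Nearly all of the rise in the SREBP control step came from INSIG1 (mean 115.5 CPM in control and 214 CPM with the pool). The other 4 genes of that step did not pass.

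Of the 4 genes that move or export sterol, none rose and 1 fell. STARD4, a soluble carrier that moves cholesterol between membranes and is a known SREBP target, stood at 53.0, 51.8 and 56.1 CPM in control and 32.5, 35.3 and 39.0 CPM in LOC550643 siRNA libraries. All 3 libraries of the pool were lower, well apart from the control libraries (log2 -0.59, SE 0.0830, limma adjusted p = 0.000294). STARD4 lies on the minus strand of chromosome 5 at 110831732 to 110848295 (hg19), and STARD4-AS1, which shares 124 annotated exon bases with it on the opposite strand, had a log2 fold change of -0.33 and did not pass. NPC1 and NPC2, which pass cholesterol out of lysosomes, had log2 fold changes of -0.11 and -0.00886 and did not pass (limma adjusted p = 0.211 and 0.945). With trends in GC content and length removed, NPC2 was at 0.06. ABCA1, which exports cholesterol to lipoproteins, was the most variable of the 35 genes, at 13.8, 23.6 and 11.3 CPM in control and 11.8, 8.22 and 13.9 CPM in LOC550643 siRNA libraries. Control replicate 2 was far above the other control libraries (log2 -0.48, SE 0.246, limma adjusted p = 0.150), and the log2 fold change of ABCA1 was -0.18 without control replicate 2, -0.27 without LOC550643 siRNA replicate 2 and -0.71 without control replicate 3, where it passed (limma adjusted p = 0.0485).

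In fatty acid synthesis, 2 of 7 genes rose, 1 fell and 4 did not pass, so 42.9% passed, near the 35.7% of all genes. FASN (chromosome 17, 80036214 to 80056106), fatty acid synthase, which builds palmitate, had 460.0, 519 and 452 CPM with the control siRNA and 786, 697 and 768 CPM with the pool. The groups were far apart, and here LOC550643 siRNA replicate 1 was the highest of the 3 (log2 0.65, SE 0.0839, limma adjusted p = 0.000177). ACLY (chromosome 17, 40023170 to 40075275), ATP citrate lyase, stood at 334, 349.6 and 359 CPM in control and 412, 456 and 472 CPM in LOC550643 siRNA libraries, without overlap (log2 0.36, SE 0.0759, limma adjusted p = 0.00355). ACACA, acetyl-CoA carboxylase, which acts between these enzymes, ranged from 62.8 to 91.6 CPM in control and from 59.9 to 83.4 CPM in LOC550643 siRNA libraries. Its log2 fold change was -0.01 (95% interval -0.33 to 0.31, limma adjusted p = 0.964), and it stood at 0.15 with trends in GC content and length removed.

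Of the enzymes that lengthen and desaturate palmitate, ELOVL6, the elongase of saturated chains, fell. It lies on chromosome 4, 110970229 to 111119820 and had 88.8, 92.9 and 96.2 CPM with the control siRNA and 68.6, 79.1 and 78.3 CPM with the pool, with no overlap (log2 -0.30, SE 0.0761, limma adjusted p = 0.00992). SCD, the stearoyl-CoA desaturase and the most abundant of the 35 genes, ranged from 752 to 789 CPM in control and from 797 to 960.4 CPM in LOC550643 siRNA libraries. It did not pass (log2 0.21, SE 0.0866, limma adjusted p = 0.0809), although it did without LOC550643 siRNA replicate 1 (0.29, limma adjusted p = 0.0317) and with DESeq2 (0.22, adjusted p = 0.0293). FADS1 and FADS2, the desaturases of polyunsaturated chains, had log2 fold changes of 0.08 and 0.05 (limma adjusted p = 0.427 and 0.641). With library totals alone they stood at -0.000633 and -0.03. They overlap on opposite strands, with 490 annotated exon bases shared.

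Per kilobase of exon, the levels in the control libraries ran from 1.55 CPM for ABCA1 to 140.3 CPM for SCD. Within the sterol route FDPS (73.8 CPM per kilobase), SQLE (72.4), CYP51A1 (64.2) and EBP (62.4) were the most abundant, and MVK (13.04) and HSD17B7 (12.8) the least. After LOC550643 siRNA, FDPS reached 125 and SQLE 101 CPM per kilobase, while IDI1, at 60.9 in control, was at 54.6. The genes that rose thus included abundant and scarce members. In CPM, the coefficient of variation over 3 libraries had a median of 3.70% over the 35 genes in control and 8.85% in LOC550643 siRNA libraries.

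**Figure D5:**
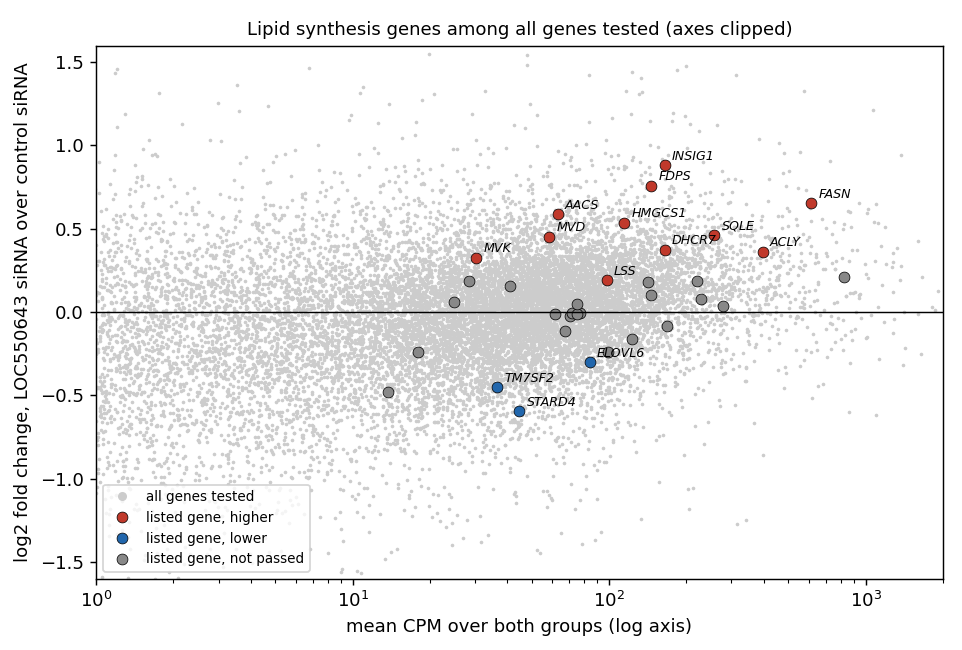
Log2 fold change (y axis) against mean CPM over both groups (x axis, log scale) for all genes tested (light grey) and the 35 listed genes (larger points, named where they passed); 1582 of 16245 genes lie outside the axes drawn. The 11 listed genes that rose lie above 0 among many other genes with changes of that size.

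The wider pathway was described by 6 further lists with 104 genes, of which 99 were tested. Of these, 26 rose and 20 fell (46.5% passed, against 35.7% of all genes and 41.95% of genes above the median level). Among 13 genes of SREBP processing and turnover, 5 rose (38.5%, against 17.5% of all genes and 26.1% of genes above the median level) and 1 fell. ERLIN2 and ERLIN1, endoplasmic reticulum proteins reported to bind the complex of SREBP, SCAP and INSIG, had the smallest p-values. ERLIN2 rose from 64.5 ± 2.64 to 111 ± 0.732 CPM (mean ± SD, n = 3 per group; log2 0.78, SE 0.0654, limma adjusted p = 1.18e-05), and ERLIN1 from 72.8 ± 4.16 to 120.5 ± 1.28 CPM (mean ± SD, n = 3 per group; log2 0.73, SE 0.0682, limma adjusted p = 2.37e-05). In both genes the 3 libraries of the pool lay within 3 CPM of each other and far above the control libraries. SEC23A, a coat subunit of the vesicles that leave the endoplasmic reticulum, rose by log2 0.42, and PGRMC1, a haem-binding membrane protein, fell by 0.31 on the log2 scale. Among 18 genes of sterol side branches and isoprenoid use, 4 rose and 3 fell (38.9%, near the 35.7% of all genes). ICMT, which methylates prenylated proteins, rose (log2 0.45). C14orf1, a scaffold of sterol demethylation, was lower (-0.46), as was TMEM97, a membrane protein that binds NPC1 (-0.42).

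Of 17 tested genes of sterol uptake, storage and efflux, 13 passed, 7 upward and 6 downward. That share was 76.5%, against 35.7% of all genes and 41.95% of genes above the median level. OSBP, which exchanges sterol for a phosphoinositide at membrane contacts, rose from 121 ± 5.08 to 181 ± 12.99 CPM (mean ± SD, log2 0.57), and NR1H2, a receptor for oxysterols, rose by log2 0.49. NCEH1 and LIPA, which hydrolyse cholesterol esters, fell, NCEH1 from 32.5 ± 0.581 to 20.2 ± 1.02 CPM (mean ± SD, log2 -0.68) and LIPA from 156 ± 10.3 to 109.6 ± 4.69 CPM (mean ± SD, log2 -0.50). Among 14 tested genes of fatty acid supply, 2 rose and 3 fell, a share (35.7%) at the 35.7% of all genes. ME1 and IDH1, which both make NADPH in the cytosol, went opposite ways: ME1 rose from 24.1 ± 2.25 to 46.6 ± 1.04 CPM (mean ± SD, n = 3 per group; log2 0.95, SE 0.0839, limma adjusted p = 1.64e-05), and IDH1 fell from 81.3 ± 8.18 to 37.4 ± 2.38 CPM (mean ± SD, n = 3 per group; log2 -1.12, SE 0.0877, limma adjusted p = 8.23e-06). MCAT, of mitochondrial fatty acid synthesis, rose by log2 0.40, and PRKAA1, a catalytic subunit of the kinase that restrains ACACA, was at -0.31, a fall that passed.

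Of 15 tested genes of elongation and desaturation, 4 rose and 4 fell. That share was 53.3%, against 35.7% of all genes and 41.95% of genes above the median level. ELOVL2 and ELOVL5, elongases of polyunsaturated chains, fell by 0.66 and 0.31 on the log2 scale, and HACD1, a dehydratase of the elongation cycle, fell by 0.51. CYB5R3, a reductase that supplies electrons to desaturases, rose (log2 0.41). Of 22 tested genes of fatty acid activation and glycerolipid synthesis, 4 rose and 3 fell (31.8%, below the 35.7% of all genes). The acyl-CoA synthetases ACSL4 and ACSL6 went opposite ways, at log2 0.68 and -1.16, and GPAM and AGPAT3, acyltransferases of glycerolipid synthesis, rose by 0.52 and 0.41. Each gene named from these lists as higher or lower passed the limma test. The median log2 fold change of the 6 lists ran from -0.14 (fatty acid supply) to 0.16 (SREBP processing), against -0.02 for all genes tested.

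In the authors' deposited table, whose test ran over all 26391 genes and called 19.8% of them, 13 of the 35 genes have an adjusted p under 0.05, each in the direction found here, and LSS does not. That table gives a log2 fold change of 0.88 for INSIG1, 0.75 for FDPS, 0.65 for FASN and -0.61 for STARD4. It rests on the same libraries. When only library totals were used for scaling, 10 of the 35 genes were higher and 6 lower, and over all genes 34.3% of calls were upward, against 49.0%. With trends in GC content and length removed, 16 of the 35 were higher and 3 lower, and 59.1% of all calls were upward.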

How the data were processed

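Each sample's poly-A RNA was made into a dUTP library read from both ends, per the labels' protocols. Alignment to hg19 was with STAR, per the labels' protocols, and counting over exons with HOMER used no strand option, per the file headers. The deposited signal per gene was scaled by the authors to equal library totals (29401170 to 29401184), and 100% of values were whole multiples of 1 step per library within 0.1 step, read as 1 read end. The authors' deposited log2 fold changes and p-values, from edgeR per the file headers and labels, are quoted only by name.

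The main test was limma 3.58.1 with a mean trend (two-sided, Benjamini-Hochberg adjustment) on log2 of the TMM-scaled value plus 1 deposited unit (0.034 CPM), over 16245 genes kept by edgeR's filter at 10 read pairs. Fold changes of low genes are understated on this scale. On recovered reads edgeR 4.0.16 called 2859 genes higher and 2992 lower, and DESeq2 1.42.0 was also run (R 4.3.3). Other alternatives changed the scaling, filter, pseudocount, threshold and depth, added a block, removed GC and length trends (GENCODE transcripts on GRCh37, 96.1% of genes) or left out a library. The labels do not say that the samples of a group were separate cultures, so a p-value here covers their spread only, which may be technical. Replicate libraries differed by more than sampling noise, with chi-square values between 5.47 and 41.4 for each degree of freedom. The 35 genes, the wider lists and the rule for naming genes (all 35, and up to 4 with the smallest p that passed in each wider list) were chosen with earlier results of these data known. PTPLA, PTPLB, PTPLAD1 and PTPLAD2 were matched as HACD1 to HACD4. 1 gene that this rule names is not reported here. The fit was tested on simulated data.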

Additional observations from a re-analysis of the deposited data

How the results depend on the processing

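Of 700 log2 fold changes of the 35 genes under 20 alternatives, 639 kept their direction and side of the threshold, including all 20 for INSIG1, FDPS, FASN, AACS, HMGCS1, SQLE, MVD, DHCR7, ACLY, STARD4, TM7SF2 and ELOVL6. The call was lost 13 times (LSS in 11, MVK in 2), gained 19 times, and the sign turned 29 times, always in genes that did not pass. The cause was not tested for any of these. With library totals alone 6 of the 35 genes were lower, PMVK was at -0.0142, SREBF2 at -0.041, FADS1 at -0.000633 and FADS2 at -0.0288, and all calls split into 2080 higher and 3977 lower. With GC and length trends removed 4310 genes were higher and 2980 lower, 16 of the 35 were higher, and ACAT2 was at 0.0145, EBP at 0.0675, SREBF1 at 0.00231, NPC2 at 0.0648 and ACACA at 0.154. EBP was at 0.00123 with median-of-ratios scaling and 0.00114 with DESeq2, SREBF1 at 0.00239 with DESeq2, 0.00358 with voom and 0.0279 when thinned to the shallowest library, and NPC2 at 0.0354 when thinned. At an adjusted p under 0.01, 1770 genes were higher and 1751 lower, a stricter threshold by construction.

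Leaving out 1 library at a time gave 9 to 13 of the 35 genes higher and 3 to 5 lower, and 2048 to 2623 higher and 2237 to 2882 lower over all genes. Over these 6 fits the log2 fold change ran from -0.14 to 0.0373 for ACAT2, -0.0396 to 0.149 for PMVK, -0.056 to 0.0813 for EBP, -0.0945 to 0.0416 for SREBF1, -0.143 to 0.00239 for SCAP, -0.0913 to 0.0602 for NPC2 and -0.131 to 0.139 for ACACA. With the replicate number as a block, 2671 genes were higher and 2717 lower in limma and 2700 and 2720 in edgeR, with 10 of the 35 higher and 3 lower in both; LSS was the call lost (adjusted p = 0.0546 in limma). Deviations of same-numbered samples correlated at 0.06, -0.28 and -0.12, and those of unlike numbers at -0.14 to 0.25. Deviations from the mean of only 3 samples cannot settle whether the numbers pair the samples, and the labels do not say. Depth limits the third LOC550643 siRNA library most, where 3 read pairs amount to 0.349 CPM.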

Other observations

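Among the 3 LOC550643 siRNA libraries, replicate 1 had the lowest level at 14 of the 19 cholesterol synthesis enzymes, replicate 2 at 1 and replicate 3 at 4, while replicate 3 had the highest at 11. At the 7 fatty acid synthesis genes the lowest level was in replicate 1 for 3 genes, in replicate 2 for 2 and in replicate 3 for 2. HMGCS1 ran from 104.8 CPM in replicate 1 to 161 CPM in replicate 3, and SQLE from 239 CPM in replicate 1 to 332 CPM in replicate 2. Without LOC550643 siRNA replicate 1, 13 of the 35 genes were higher and 3 lower. These counts describe 3 libraries, and what moved with them was not tested.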
